A study of Homo sapiens with 4 samples.

Results

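The response of the lung squamous cell carcinoma line H520 to siRNA against SOX2 was read from 1 pair of arrays, H520 with a SOX2 siRNA pool and H520 with scrambled control siRNAs, out of 4 arrays in the series. Both were Illumina HumanHT-12 v3 BeadChips, on which probes attached to beads bind labelled cRNA, and RNA was taken 48 h after siRNA treatment. The other 2 arrays came from LK2, a second squamous line treated in the same way. Probes of a gene were averaged, and 18852 genes with at least 1 probe carrying a single gene symbol were measured on each array. All values are differences on the log2 scale, SOX2 siRNA minus control siRNA, unless stated otherwise. H520 is 1 established line, both groups received an siRNA pool, and there was 1 array per group, so no value has a replicate, an error between arrays or a p-value.

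SOX2 is a transcription factor of the high-mobility-group family that keeps stem and progenitor cells undifferentiated and is required for foregut and airway epithelium. Its gene lies in the distal long arm of chromosome 3, a region often amplified in squamous lung cancer, where SOX2 acts as a lineage oncogene. It often binds DNA with partner factors such as the POU family, and it acts both as an activator and as a repressor. An siRNA pool lowers its mRNA for some days, so the arrays record direct and later consequences together.

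SOX2 mRNA was lower with its siRNA, but not by much. One SOX2 probe read 0.45 on the control array and -0.21 on the SOX2 siRNA array, and the other read 0.10 and -0.54, in the authors' log2 values, which were taken as centred per probe. Both probes therefore gave nearly the same difference, -0.66 and -0.65, and the siRNA array stood at 63.2% and 63.8% of the control. The gene difference of -0.66 (63.5% of control) was only the 140th lowest of the 18852 genes. In LK2 the same probes gave -1.89 and -2.33.

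Of the 18852 genes, 152 (0.806%) were at least 1.5-fold higher with SOX2 siRNA, 201 (1.07%) at least 1.5-fold lower, and 353 (1.87%) past that fold in either direction. At 2-fold the counts were 33 (0.175%) higher and 37 (0.196%) lower, 70 (0.371%) in all. The remaining genes lay close to 0: 75.9% differed by less than 0.2, the SD over genes was 0.212 and the median was 0.00243. The 1.5-fold limit lies inside a continuous distribution, with RAB17 at 0.59 just past it and FHIP2A at 0.58 just short of it. On the lower side NIBAN1 and PRUNE2 stood at -0.58 on either side of the limit. No detection call was available, so genes without signal are among those counted.

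**Figure D1:**
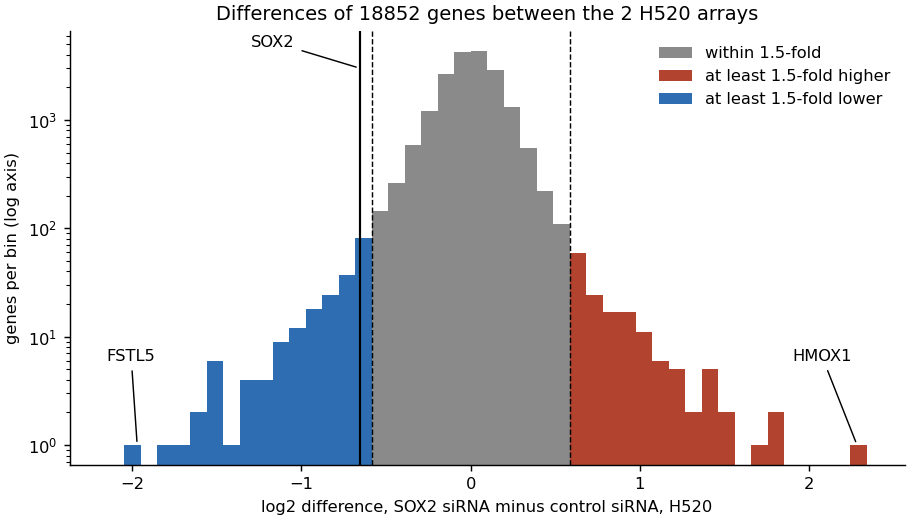
Histogram of the log2 difference (SOX2 siRNA minus control siRNA) of 18852 genes in H520, with the number of genes per bin on a log axis and dashed lines at 1.5-fold. Most genes lie near 0, 152 lie past the upper line and 201 past the lower line, and SOX2 at -0.66 lies just beyond the lower line.

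Genes with several probes were measured more than once within the same 2 arrays. Of the 353 genes, 278 had 1 probe and 75 had more. All 75 had every probe on the same side of 0, against 2777 of all 6131 genes with several probes (45.3%). In 39 of the 75 every probe was past 1.5-fold in the same direction. The 75 genes were chosen on the mean of the same probes, so both of their counts are descriptions. Single-probe genes were past the limit more often (2.19%) than genes with several probes (1.22%), whose values are averages. Among 3934 genes with 2 probes, 37 had a first probe at least 1.5-fold higher, and the second probe was above 0 in 30 and past 1.5-fold in 14. Of 48 genes with a first probe at least 1.5-fold lower, the second was below 0 in 45 and past 1.5-fold in 23. In 0 of these genes was the second probe past 1.5-fold in the opposite direction. Among genes with probes on both sides of 0, the largest difference was that of TSC22D1, a TGF-beta-induced leucine zipper gene, at 0.56, with 5 probes from -0.01 to 0.93. The spread between the 2 probes of a gene was 0.179 (SD), and the largest gap between 2 probes was 1.42. Of the genes named by list below, 8 (MYC, COL8A1, ID1, DKK1, HEY1, DUSP6, SLC39A8 and IFI6) were not past 1.5-fold by the probe with the smallest difference.

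HMOX1, the inducible haem oxygenase that breaks down haem under oxidative stress, had the largest difference on the array. It read -0.51 on the control array and 1.77 on the SOX2 siRNA array, a difference of 2.28 or 4.87-fold. KRT23, an acidic epithelial keratin, read -1.34 and 0.50 and was 3.59-fold higher. MAP3K8, the kinase also known as TPL2 that activates the MEK and ERK pathway, read -0.46 and 1.33 and was 3.44-fold higher. These 3 genes were read by 1 probe each.

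Several enzymes stood among the 25 highest genes. PNPLA7, a lysophospholipase, was higher by 1.66, and ENPP2, the secreted enzyme autotaxin that makes lysophosphatidic acid, by 1.37, with 1.30 and 1.43 by its probes. PCCA, a subunit of the mitochondrial propionyl-CoA carboxylase, was higher by 1.38. RIMKLA, which makes N-acetylaspartylglutamate, was higher by 1.36, with 1.28 and 1.45 by its probes. The sialidase NEU4 was at 1.23, the gastric protease precursor PGC at 1.15, the kinase gene ALPK2 at 1.43, and LYZL2, a lysozyme-like gene, at 1.07. ABCC3, an efflux pump for organic anions and a known NRF2 target, was at 1.23.

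Secreted and matrix genes were also among them. VASN, a membrane protein that binds TGF-beta, was higher by 1.54. COL6A3, a chain of the microfibril-forming type VI collagen, was 2.80-fold higher, with 1.70 and 1.27 by its probes. GDF15, a stress-induced cytokine of the TGF-beta family, was at 1.23, FGL2, a fibrinogen-like protein, at 1.32, and CEMIP, which mediates hyaluronan breakdown, at 1.10. The calcium-binding S100A3, known from the hair cuticle, was at 1.41. The transcription factor genes of this group were the homeobox genes LHX1 at 1.23 and DLX3, an epidermal and placental factor, at 1.14, and the CXXC zinc finger gene CXXC5 at 1.09. FHOD3, an actin-assembling formin, was at 1.27, FGD3, an exchange factor for CDC42, at 1.11, SYNGR4, a synaptogyrin, at 1.42, and the imprinted noncoding RNA gene H19 at 1.11. Of these 25 genes, COL6A3, ENPP2 and RIMKLA had 2 probes and the other 22 had 1.

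The lowest value on the array was that of FSTL5, a secreted follistatin-like protein. It read 1.14 on the control array and -0.83 on the SOX2 siRNA array, a difference of -1.97 that left 25.5% of the control. FGFBP1, which releases fibroblast growth factors from the matrix, read 0.32 and -1.47 and was 3.45-fold lower. TMEM158, a membrane protein induced by RAS signalling, stood at 30.3%. SOX21, a related SOX factor that opposes SOX2 in neural progenitors of the chick, read 1.74 and 0.09 and stood at 31.7%. These 4 genes, chosen as the lowest on the array, were lower by far more than the knocked-down gene itself.

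Signalling proteins and receptors made up much of the remainder of the 25 lowest genes. SOSTDC1, an antagonist of BMP and Wnt ligands, was at -1.52, and IGFBP3, which carries insulin-like growth factors, at -1.50, with -1.40 and -1.59 by its probes. KITLG, the ligand of the KIT receptor, was at -1.13, and its 3 probes ranged from -1.33 to -0.94. IL13RA1, a subunit of the interleukin 13 receptor, was at -1.41 and NMUR2, a receptor for neuromedin U, at -1.36. CACNA1E, a pore subunit of voltage-gated calcium channels, was at -1.35, TTYH3, a chloride channel gene, at -1.14, and PCDH19, a protocadherin, at -1.19. ENTPD3, an ectonucleotidase that degrades extracellular ATP, was at -1.61, with -1.71 and -1.50 by its probes. TNFAIP8L3, a phosphoinositide transfer protein, was at -1.14.

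Cytoskeletal and nuclear genes completed that group. NEFL, the light neurofilament chain, read 1.65 and 0.15 and stood at 35.4% of the control. CSRP2, a LIM-domain protein of smooth muscle, was at -1.52, PDLIM1, a PDZ and LIM protein of actin fibres, at -1.31, and CKAP4, a membrane protein of the endoplasmic reticulum, at -1.22. TBX2, a T-box repressor known from lung mesenchyme of the mouse, was at -1.26. RGCC, a regulator of cell cycle kinases, was at -1.46, STK38L, a kinase of the Hippo family, at -1.13, and COX8A, a subunit of cytochrome c oxidase, at -1.30. NELL1, a secreted osteogenic protein, was at -1.53, VEPH1 at -1.15 and FAM43A at -1.20. Of the 25 lowest genes, 22 had 1 probe, 2 (ENTPD3 and IGFBP3) had 2 and KITLG had 3.

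**Figure D2:**
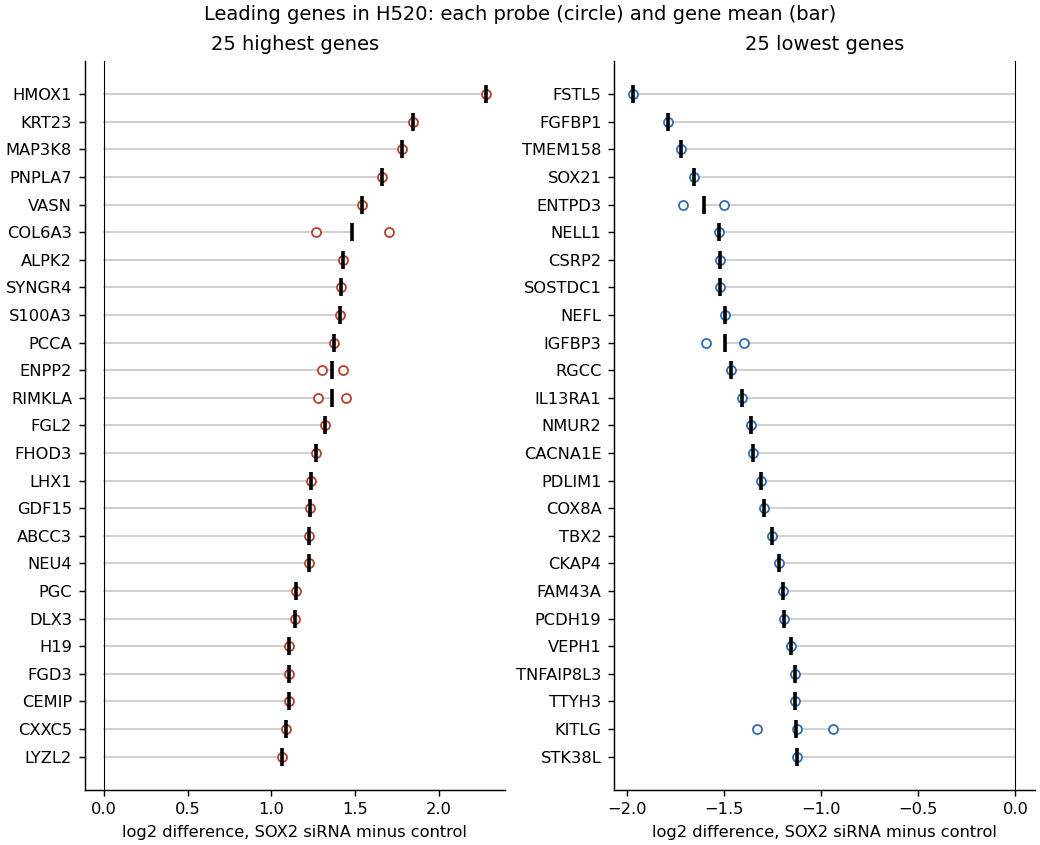
The 25 highest (left) and 25 lowest (right) genes of H520 whose probes all lie on the same side of 0, on the log2 difference scale (SOX2 siRNA minus control siRNA), with a circle for each probe and a bar for the gene mean. HMOX1 at 2.28 and FSTL5 at -1.97 stand at the ends. The 6 genes with several probes have them on the same side of 0 by choice. COL6A3 has probes at 1.70 and 1.27, and those of KITLG range from -1.33 to -0.94.

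**Figure D3:**
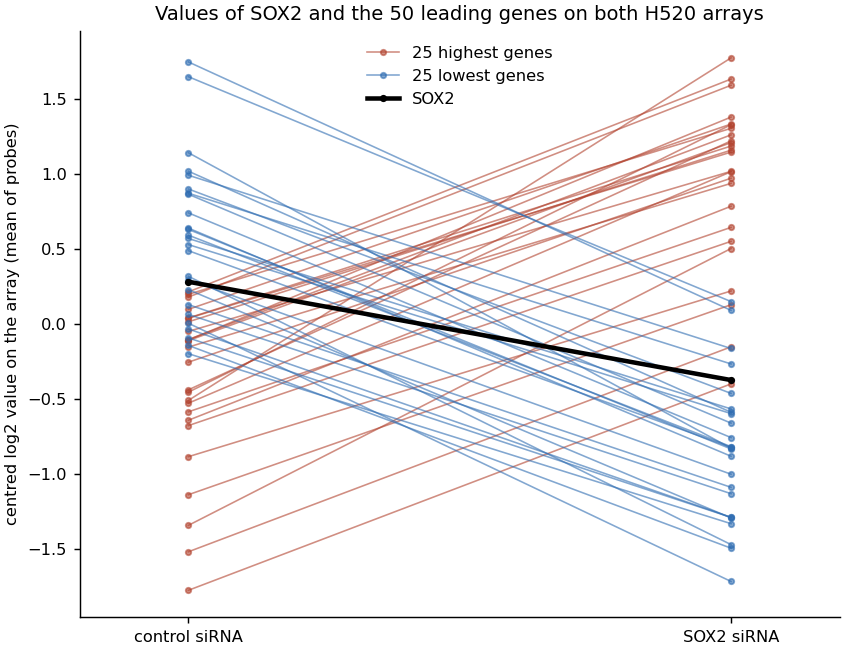
Centred log2 values of SOX2 (black), the 25 highest genes (red) and the 25 lowest genes (blue) on the control siRNA array and the SOX2 siRNA array of H520, each line joining the mean of 1 gene's probes. The line of SOX2 runs from 0.28 to -0.38. The 50 genes were chosen for their extreme differences, so their steeper lines follow from that choice.

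To see how the response was spread over known families, 55 gene lists with 1425 genes were read, of which 1318 were measured. Of these, 35 were at least 1.5-fold higher and 40 lower, together 5.69% against 1.87% of all genes. The lists were written with results of these arrays known, so that share is a description only. No list holds its whole family. Some genes past the limit that belong to the same family but were not on the list are named beside it. They were picked after their values were seen and are not a complete set. In 16 lists no member was past 1.5-fold, and the list medians ran from -0.20 to 0.16. Of all genes 50.7% lay above 0, the share to set beside the counts above or below 0 given for single lists. Those counts too are descriptions only.

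The SOX family itself had 19 measured genes, of which 0 were at least 1.5-fold higher and 2, SOX21 and SOX2, lower, with a median of -0.08. Among 19 pluripotency and stem cell factors, MYC, a growth-promoting transcription factor, was past the limit, at 0.59 with probes at 0.41 and 0.77, and the median was 0.01. The 33 measured 3q26-q29 neighbours of SOX2 had 0 genes past 1.5-fold and a median of 0.01. Their largest differences were in the kinase gene PRKCI (0.52), the transporter gene ABCC5 (0.49), the mitochondrial import gene DNAJC19 (-0.42) and the repressor gene BCL6 (-0.32).

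Squamous genes differed singly and in both directions. Of 20 squamous transcription factors, 2 were higher, DLX3 and the homeobox gene MSX1 (0.70), and 0 lower, with a median of 0.08. Of 17 structural markers, SFN, the 14-3-3 sigma adaptor of keratinocytes, was higher by 0.99 and CALML3, a calmodulin-like epithelial protein, by 0.88. PERP, a desmosomal protein and p53 target, was lower, at -0.80, and the median of that list was -0.01. The keratins KRT5 (0.02) and KRT14 (-0.21), named here as markers of basal squamous cells outside the naming rule, were not past it. Of 27 cornified envelope and S100 genes, the crosslinking enzyme gene TGM3 was past the limit, at 0.73, with a median of -0.02. Other genes of this kind were not on that list and were picked after their values were seen. S100A3, described above, and the epidermal genes CALML5 (0.91) and ASPRV1 (0.84) were higher. The keratinocyte gene KDF1 (-0.87) and the epidermal serpin SERPINB7 (-0.85) were lower.

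Junction genes had 0 of 17 past 1.5-fold, although 13 lay above 0, with a median of 0.09. The tight junction gene CGN was at 0.52, the claudin gene CLDN3 at 0.44, and the desmosomal genes DSC2 and PKP2 both at 0.35. CLDN23, a claudin gene that was not on the list, was past the limit, at 0.68. Airway and glandular genes had 0 of 17 past the limit and a median of -0.03. The trefoil gene TFF3 (-0.43) and the pioneer factor FOXA1 (-0.42) were the lowest, the mucin gene MUC1 (0.40) was the highest and the epithelial factor ELF3 was at -0.32. Neuroendocrine genes had 0 of 19 higher and 3 lower: the granin CHGB (-0.81), the transcription factor INSM1 (-0.76) and the monoamine-producing enzyme gene DDC (-0.62). The median of that list was 0.03, with 10 members above 0, up to 0.22, and 9 below. The granin CHGA, named after its value was seen, was next lowest at -0.34.

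Markers of other cell types lay near 0. Of 23 immune, fibroblast and endothelial markers, 0 were past 1.5-fold and the median was 0.03, with a range from -0.30 (VWF) to 0.30 (EMCN). CD68 was at 0.29 and HBB at 0.26. Levels cannot be read from centred values, and the separate scanner values match no sample by name. Whether squamous markers are expressed in these cells was therefore not checked.

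Matrix and adhesion lists each held 1 or 2 genes past the limit. Among 30 collagen genes, COL6A3 was higher and COL8A1 lower (-0.72, with 3 probes from -1.25 to -0.19), with a median of 0.08. FBN2, a fibrillin of developing microfibrils, was at -0.99 among 26 matrix glycoproteins, with a median of 0.04. LAMA5, a basement membrane laminin chain, was at 0.59 among 20 integrins and laminins, with a median that rounded to 0. ADAMTSL2, which binds fibrillin microfibrils, was at 1.05 among 25 matrix proteases and inhibitors, with a median of 0.11. Among 22 cadherins and protocadherins only PCDH19 was past the limit, and 17 of the 22 lay below 0, with a median of -0.05. Of 19 EMT and mesenchymal genes, VIM, the intermediate filament vimentin, was at -0.70 with probes at -0.77 and -0.62, and the median was -0.01. Of 16 hyaluronan genes, CEMIP alone was past 1.5-fold, with a median of -0.08.

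Wnt inhibitors and targets had the largest share past 1.5-fold of all 55 lists, 6 of 21 genes (28.6%), against 1.87% of all genes. That rank depends on which genes were put on each list with these results known. DKK1, a secreted antagonist of the LRP co-receptors, was higher by 1.01, although its probes read 0.41 and 1.61. APCDD1, a membrane inhibitor, was at 0.91, and SP5, a transcription factor induced by beta-catenin, at 0.85. NKD1, an intracellular inhibitor, was at 0.72 and RNF43, a ligase that removes frizzled receptors, at 0.64. WIF1, another secreted inhibitor, was lower, at -0.64. The median of the list was -0.03, with 10 members above 0 and 11 below. Among 30 Wnt ligands and receptors, the receptor FZD1 was at -0.98, with -1.05 and -0.90 by its probes, and the ligand WNT5A at 0.72, with a median of -0.08.

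The list of BMP ligands and antagonists also holds more distant relatives. It had 1 of 28 genes higher and 2 lower, with a median of 0.03. The higher gene was GDF15, of the wider TGF-beta family, and the lower ones were SOSTDC1 and the follistatin-like FSTL5. Among 27 receptors, SMAD and ID genes, the BMP-induced ID1 was at 0.59, with both probes above 0.5, and the TGF-beta mediator SMAD3 at -0.59, with a median of 0.05. In the Notch pathway 2 of 24 genes were higher and 0 lower, with a median of 0.08. These were the hairy-related repressors HEY1, at 0.86 with discordant probes at 0.26 and 1.46, and HES2, at 0.73 with 0.66 and 0.80.

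The list of MAP kinase feedback genes also holds the upstream kinase gene MAP3K8. It had 3 of 28 higher and 0 lower, and 20 of 28 lay above 0, with a median of 0.15. Beside MAP3K8 these were ETV4, an ETS factor induced by ERK, at 0.94 by both of its probes, and DUSP6, the ERK phosphatase, at 0.63. FGFBP1 was the 1 gene past the limit among 20 FGF ligands, receptors and carriers, with a median of -0.01. The ligand genes FGF17 (0.69) and FGF20 (0.67), which were not on that list, were higher. Among 26 genes of the EGFR and Eph receptor families, EPHA2 was at 0.63 and EPHA4 at -0.66, with a median of -0.01. In the insulin-like growth factor pathway IGFBP3 and IGFBP4 (0.78), both carriers of the growth factors, lay on opposite sides, with a median of -0.02 over 18 genes. Semaphorins, plexins and axon guidance genes had 0 of 36 past the limit and a median of -0.03. SEMA3F (0.57), SEMA4C (0.52), SLIT3 (0.50) and SEMA4D (-0.49) came closest.

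NRF2 target genes, which protect from oxidants, had the highest median of all lists, 0.16, and 21 of 25 lay above 0. 3 were past 1.5-fold: HMOX1 and ABCC3 were higher, and TXNRD1, thioredoxin reductase, was lower, at -0.89 with both probes below -0.8. Iron and haem genes had 0 of 17 past the limit and a median of 0.05. The haem transporter gene SLC48A1 was at 0.51, the iron-sensing aconitase gene ACO1 at -0.47, STEAP1 at -0.28 and the mitochondrial iron importer gene SLC25A37 at 0.21. Among 20 metallothioneins and zinc transporters, 3 metallothionein genes that bind zinc and copper were lower: MT2A (-0.74), MT1G (-0.73) and MT1F (-0.63). Each was read by 1 probe, and the 3 genes are close copies, so a probe may read several of them. The zinc importer SLC39A8 was higher, at 0.71 with probes at 0.37 and 1.04, and the median was -0.11.

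Of 23 p53 target genes, 2 (8.70%) were past the limit, against 1.87% of all genes. The growth arrest gene GADD45A was at 0.84 and PERP was lower, with a median that rounded to 0. Some other known p53 targets were not on that list and were picked after their values were seen. GDF15 and SFN, described above, and the autophagy regulator DRAM1 (0.75) were higher, whereas IGFBP3, also described above, was lower (-1.50). BNIP3L, a mitophagy receptor, was at -0.93 among 24 BCL2 family and apoptosis genes, with -1.19 and -0.68 by its probes and a list median of -0.04. CDK inhibitors and G1 cyclins had 0 of 20 past the limit and a median of 0.01, and their largest difference was 0.29, in E2F3. CDKN1B was at 0.24, CCND3 at 0.21 and CCNE1 at -0.19. DNA replication genes had 0 of 30 past the limit and a median of 0.03, led by CDC45 (-0.50), DSCC1 (0.47), CDC6 (-0.47) and ORC1 (-0.40). Mitosis genes had 0 of 31 past the limit, with 23 below 0 and a median of -0.07, led by HMMR (-0.55), TTK (-0.28), CCNA2 (-0.28) and AURKB (-0.25). Replication-dependent histone genes had 0 of 27 past the limit and a median of -0.02, with H2BC9 at -0.46, H1-2 at -0.43, H2BC14 at -0.40 and H2BC17 at 0.33.

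Metabolic lists leaned to lower values in part. Glycolysis and hypoxia genes had 22 of 29 below 0 and a median of -0.15, yet the 1 gene past 1.5-fold, the hypoxia-induced repressor BHLHE40, was higher, at 0.64. Cholesterol synthesis genes had a median of -0.12, with CYP51A1, the lanosterol demethylase, at -0.60 among 19. Of 29 lipid metabolism genes, PNPLA7 was higher and the desaturase FADS1 lower (-0.60), with a median of -0.01. Oxidative phosphorylation genes had 2 of 27 lower, UQCRC2 of complex III (-0.92) and SDHD of complex II (-0.72), with a median of -0.01. COX8A of complex IV, which was not on that list, was lower still. Among 24 amino acid and glucose transporters, the glutamate transporter SLC1A2 was at 0.99, with a median of 0.07. ABC transporters other than ABCC3 had 0 of 22 past the limit and a median of 0.02, with ABCC5 at 0.49, ABCG2 at 0.26, ABCC4 at -0.23 and ABCF1 at -0.21.

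Stress and protein synthesis lists held few genes past the limit. ATF4 stress response genes had 19 of 26 below 0 and a median of -0.13, and CRELD2, an endoplasmic reticulum protein, was at -0.60. Heat shock proteins and chaperones had 0 of 25 past the limit and a median of -0.03, with CCT5 at 0.44, HSPA1B at 0.43, DNAJB4 at 0.42 and HSPA1L at 0.24. Ribosomal protein genes had 0 of 24 and a median of 0.03, with RPL7A at 0.43, RPS2 at -0.22, RPS19 at -0.19 and RPL35 at 0.17. WIPI1, which binds phosphoinositides on forming autophagosomes, was at -0.72 among 26 autophagy and lysosome genes, with a median of 0.04.

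The list of antigen presentation genes also holds ligands of the NKG2D receptor. It had the lowest median of all lists, -0.20, with 21 of 25 below 0. The class I gene HLA-B was at -0.86, and the stress ligands of the NKG2D receptor MICB and ULBP1 were at -0.94 and -0.66. HLA-B shares long stretches of sequence with other class I genes, so its probe may read several of them. Interferon-stimulated genes had 0 of 28 higher and 3 lower, MX1 (-0.62), IFI6 (-0.62) and IFI27 (-0.60), with a median of -0.02. Among 38 genes of NF-kB feedback, chemokines and cytokines, the neutrophil chemokine CXCL8 was at 0.76, with 0.68 and 0.85 by its probes, and IL13RA1 was lower, with a median of 0.02.

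Developmental regulators had few genes past 1.5-fold. TBX2 was the 1 gene past it among 15 listed T-box genes, while TBXT, the T-box factor brachyury, was not on the list and was at 0.71 with probes at 0.35 and 1.07. CACNA1E was the 1 gene past it among 31 voltage-gated ion channels. HOX genes had 0 of 25, with HOXB7 at -0.41, HOXC8 at 0.38, HOXD9 at 0.31 and HOXB4 at 0.30. FOX and GATA factors had 0 of 25, with FOXD1 and FOXO1 at -0.35, GATA2 at 0.34 and FOXO4 at -0.21. Cancer-testis antigen genes had 0 of 25, led by MAGEA6 (0.28), MAGEA10 (0.21), CTAG2 (0.19) and MAGEA2 (-0.16), which belong to families of near-identical copies. Retinoic acid genes had 4 of 19 past the limit in both directions, with a median of -0.02. CRABP2, which carries retinoic acid to the nucleus, was at 1.02 and STRA6, the membrane receptor for retinol uptake, stood at 201% of the control. DHRS3, which turns retinal back to retinol, was at -0.80, and RAI14, named for its induction by retinoic acid, was at -0.61.

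**Figure D4:**
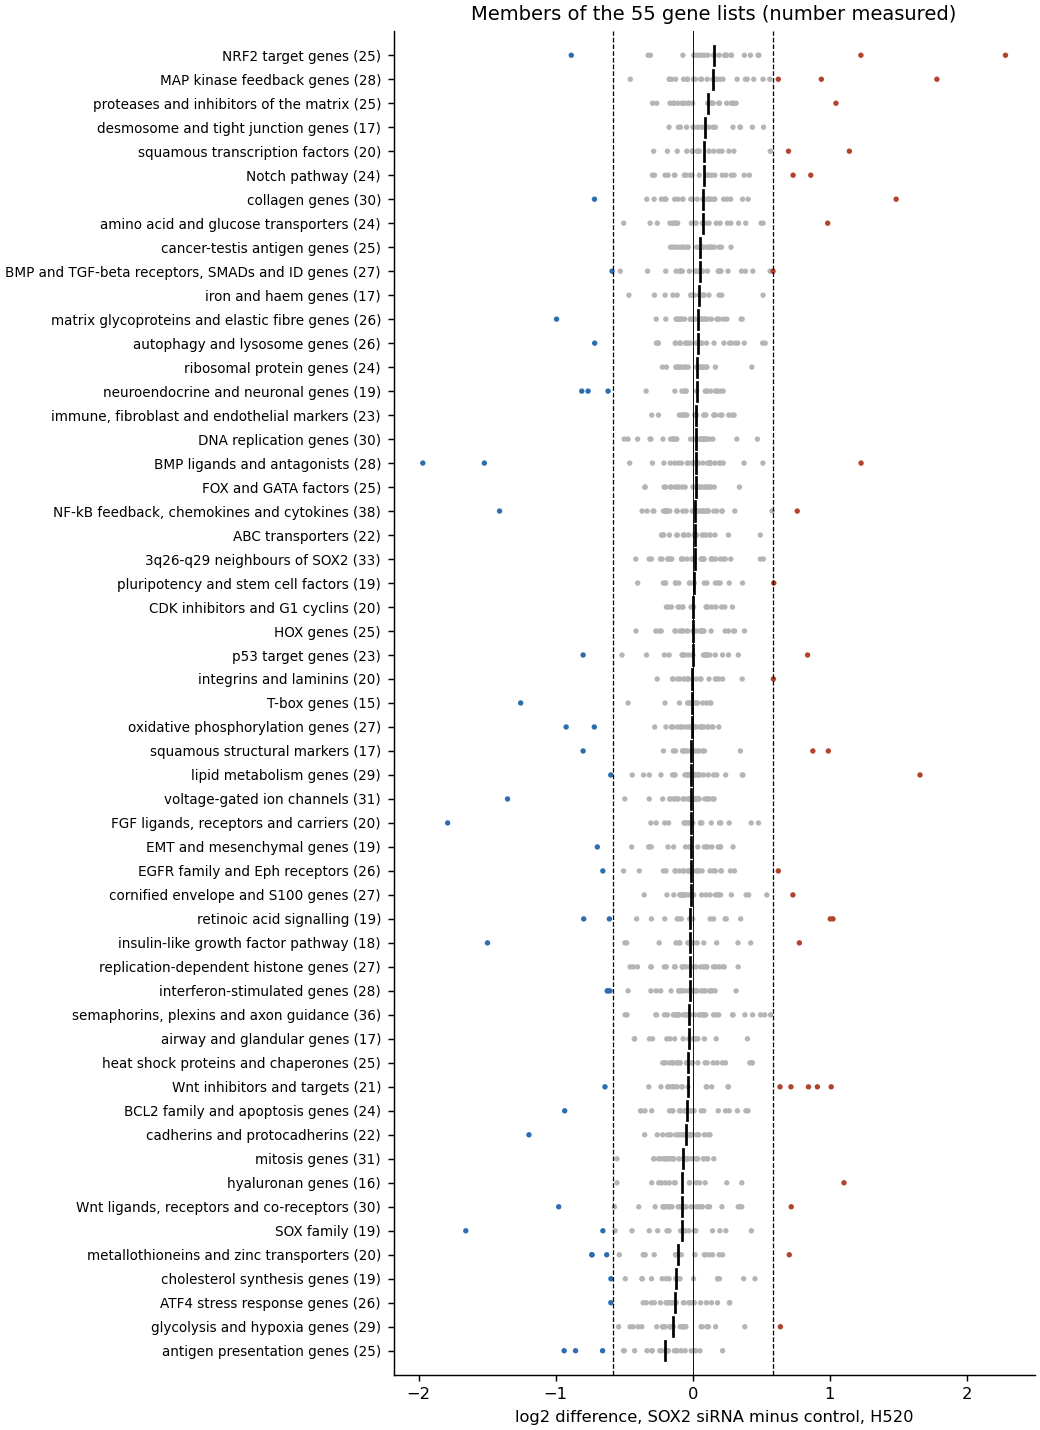
Log2 differences (SOX2 siRNA minus control siRNA, H520) of the measured members of 55 gene lists, 1 point per gene, red and blue where past 1.5-fold (dashed lines), with a black bar at each list's median. Medians run from -0.20 (antigen presentation) to 0.16 (NRF2 targets), and 16 lists have no member past the lines.

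Families were also formed from the letters that open each gene symbol, and 255 such families had at least 10 measured genes. In 185 of them no gene was past 1.5-fold, and 21 had 2 or more. The metallothioneins led, with 4 of 11 genes (36.4%), since MT4 of squamous epithelium was higher, at 0.97, while MT1F, MT1G and MT2A were lower. MT1F, MT1G and MT2A are close copies, so their probes may not be separate readings. The galectins had 2 of 15 higher, LGALS1 (0.66) and LGALS8 (0.64, with 4 probes from 0.07 to 1.23), and the cytochrome P450 genes 3 of 55 higher and 1 lower. These 3 were CYP4F11 (0.87), CYP1B1 (0.71) and CYP24A1 (0.69). The 4 largest families lay below the background of 1.87%: 4 of 456 ZNF zinc finger genes (0.877%), 0 of 438 LINC noncoding genes, 0 of 379 genes opening with OR, mostly olfactory receptors, and 6 of 377 solute carriers (1.59%). The families named here were picked after their values were seen.

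Other genes past 1.5-fold, likewise picked after their values were seen, add detail on kinases and on the nervous system. Among kinases of growth factor pathways, PIK3CB, a catalytic PI3 kinase subunit, was at -1.06, MAPK3, which encodes ERK1, at -0.68 with both probes below -0.6, and MAP2K1, which encodes MEK1, at -0.65. STAT3, a cytokine-activated transcription factor, was at -0.64 and its 3 probes ranged from -0.78 to -0.46. POU3F2, a POU factor of neural progenitors, was at -0.77 with probes at -0.87 and -0.66. The oligodendrocyte lineage genes OLIG1 and OLIG2 were at -0.62 and -0.64, the tubulin gene TUBB2A at -0.88, and the filament gene PRPH at -0.62. Other genes of the nervous system were higher: the enzyme genes DBH, which makes noradrenaline, and GAD1, which makes GABA, were at 0.85 and 0.66, the serotonin receptor HTR2A at 0.96, SEZ6L at 0.97, FAIM2 at 1.06 and the kinesin gene KIF5C at 0.64. In the citric acid cycle, SUCLA2 was at -0.66 while SUCLG2, an alternative partner subunit, was at 0.59. IDH1, the cytosolic isocitrate dehydrogenase, was at -0.66. The imprinted noncoding gene MEG3 was higher, at 0.94, with 0.84 and 1.05 by its probes.

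Some genes past 1.5-fold were neighbours on a chromosome. In RefSeq order (GRCh38.p14), 18803 pairs of adjacent measured genes were formed, and in 16 both genes were past the limit, 12 in the same direction. Of 705 positions next to a gene past the limit, 32 (4.54%) held another, against 1.87% of all genes. MT1F and MT1G, close copies of each other, were among these pairs. The pairs named here were picked after their values were seen. CEMIP and ABHD17C (1.03) were such a pair, both higher, and so were MAP3K8 and LYZL2, and COL6A3 and MLPH (0.92). VEPH1 and PTX3 (-1.09) were adjacent and both lower. IL13RA1 lay between the lower ZCCHC12 (-0.99) and the higher DOCK11 (0.78).

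Promoters were searched for the hexamer ACAATG, or its reverse complement CATTGT, a core that SOX factors bind. The window ran from 250 bases before to 50 after the start of each gene in RefSeq (GRCh38.p14). The hexamer was present in 8.18% of 14873 promoters of measured genes. It was present in 5 of 112 (4.46%) promoters of genes at least 1.5-fold higher and in 9 of 163 (5.52%) of genes lower, both below the share over all genes. Of the 25 highest genes 17 had a promoter sequence and 1, PCCA, held it, and of the 25 lowest 21 had one and 0 held it. A match is only a run of letters, and its absence from this window shows nothing about binding elsewhere. The matches in PCCA and in 4 of the lower genes, picked after their values were seen, are printed. Each has 10 bases on either side, on the strand of the gene, with the hexamer in capitals.
PCCA: tgcggggacaACAATGgcggggttct
SDHD: ccagctccgcCATTGTtcgcctcagg
EPHA4: atcagtagctACAATGactgaaatcc
IFI27: atattaactgACAATGactgatgcca
GFRA3: ggcagcttccACAATGtcttgctagt
They lie at chr13:100089108-100089133 (plus strand) for PCCA, chr11:112086711-112086736 (plus) for SDHD, chr2:221574322-221574347 (minus) for EPHA4, chr14:94110529-94110554 (plus) for IFI27 and chr5:138274734-138274759 (minus) for GFRA3. GFRA3, named for its promoter after its value was seen, a receptor subunit for the neurotrophic ligand artemin, was at -0.96. The hexamer of PCCA begins 26 bases after the start site and the other 4 lie before it, at 152 bases in SDHD, 135 in EPHA4, 197 in IFI27 and 128 in GFRA3.

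LK2 offers a second pair of arrays that shares no array with H520. A centre subtracted per probe cancels in each difference, but whether the 4 arrays were normalized together is not stated. Of the 152 genes higher in H520, 112 (73.7%) were above 0 in LK2, and of the 201 lower, 143 (71.1%) were below 0, against 54.0% of all genes with the same sign in both lines. At 1.5-fold, 42 of the 152 (27.6%) and 41 of the 201 (20.4%) were also past the limit in the same direction in LK2, where 1.9% of all genes were that much higher and 1.3% that much lower. In all, 83 genes were past the limit in the same direction in both lines and 9 in opposite directions. Of the 25 highest genes 18 were above 0 in LK2 and 9 past 1.5-fold the same way, and of the 25 lowest 19 were below 0 and 10 past it. DLX3 was at 1.14 in H520 and 1.70 in LK2, TBX2 at -1.26 and -1.08, and PCDH19 at -1.19 and -1.39. ENPP2 was at 1.37 in H520 and -0.06 in LK2, FGD3 at 1.11 and 0.03, LHX1 at 1.23 and -0.05, FSTL5 at -1.97 and 0.03, NMUR2 at -1.36 and 0.04, and NELL1 at -1.53 and 0.10. With 1 array per group the difference between the lines was not tested. SOX2 was at -0.66 in H520 and at -2.11 in LK2, and the part of that gap in these differences was not tested.

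**Figure D5:**
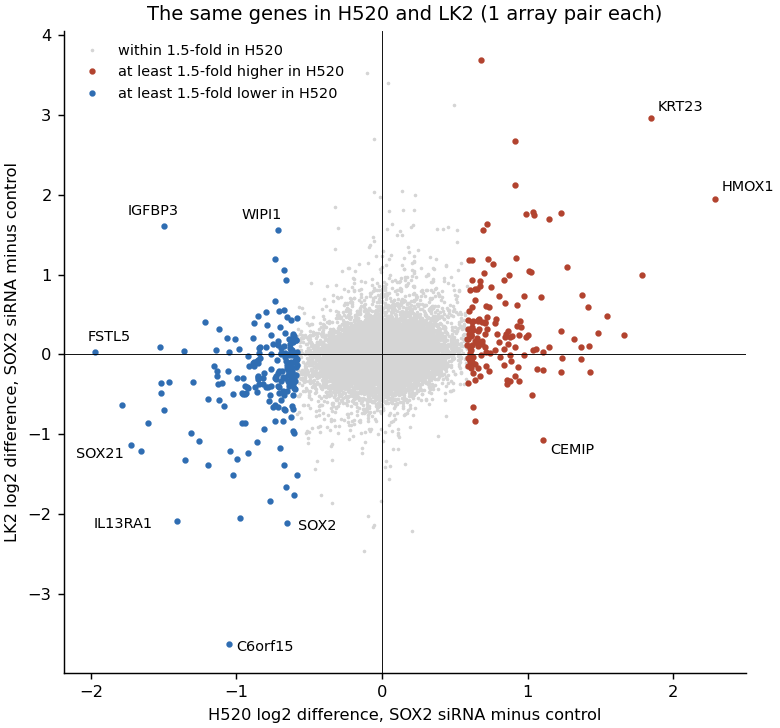
Log2 difference (SOX2 siRNA minus control siRNA) of each gene in H520 on the horizontal axis and in LK2 on the vertical axis, red and blue where at least 1.5-fold higher or lower in H520. KRT23 and HMOX1 lie far from 0 in both lines, FSTL5 lies at -1.97 in H520 and 0.03 in LK2, and IGFBP3 (-1.50 and 1.61) and CEMIP (1.10 and -1.07) lie in opposite corners.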

How the data were processed

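Total RNA of H520 and LK2 cells was labelled with biotin as cRNA and hybridised to Illumina HumanHT-12 v3 BeadChips, per the labels' protocols. The deposited series matrix gave the authors' processed log2 values of 48801 probes. How background, normalization and centring were handled is not stated in these sources. The columns have equal means, medians near 0 and SDs over probes of only 0.191 to 0.432. They were therefore taken as equalised between arrays and centred per probe, and only differences between arrays were read. A second table holds 4 columns of scanner values whose names match no sample; these were read only to settle the log base. Over 4607 probes above 500 in all 4 columns, the best-matching pairs of columns gave slopes of 0.979 to 0.988, where log2 gives 1 and natural logs 0.693.

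Probes were named from the platform annotation, in which 28096 had 1 gene symbol, 13 several and 20692 were not listed. Of the named probes, 28057 matched RefSeq (GRCh38.p14) by Entrez identifier. Probes of a gene were averaged in Python 3.11.15 with pandas 2.3.3, and the averaging was tested on simulated data. H520 has 1 array per group, so genes past 1.5-fold were counted without a test. With so few arrays, precision is limited.

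The text names SOX2, the 25 highest and 25 lowest genes with all probes on one side of 0, the members of each list past 1.5-fold or else the 4 with the largest difference, and TSC22D1, the gene with the largest difference among those with discordant probes. The genes on either side of the 1.5-fold limit are also named, and other names are marked as chosen after their values were seen or outside this rule. The genes, lists and alternatives were chosen with earlier results of these data known. Alternatives were the median, the smallest or the largest probe of a gene, subtraction of the median, quantile normalization of both H520 columns, a 2-fold limit and agreement of all probes.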

Additional observations from a re-analysis of the deposited data

Results flagged for a closer look

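Of the genes named by rule, 7 were past 1.5-fold in both lines but in opposite directions, and with 1 array per group the difference was not tested in any of them. Over all genes, 9 were past it in opposite directions and 83 in the same direction. CEMIP, which mediates hyaluronan breakdown, was higher in H520 (1.10) and lower in LK2 (-1.07), and DUSP6, the ERK phosphatase, was likewise at 0.63 and -0.66. The other 5 were lower in H520 and higher in LK2. IGFBP3 was at -1.50 and 1.61, the autophagy gene WIPI1 at -0.72 and 1.56, the metallothioneins MT2A at -0.74 and 1.19 and MT1G at -0.73 and 0.66, and the NKG2D ligand gene ULBP1 at -0.66 and 0.93. IGFBP3 and DUSP6 had 2 probes each, and the other 5 genes had 1.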

How the results depend on the processing

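Counts past the limit depended on how the probes of a gene were combined and on the fold. With the most extreme probe of each gene, 231 genes were higher and 289 lower, against 152 and 201 with the mean of probes, since that setting picks the larger value. At 2-fold, 33 were higher and 37 lower. Requiring every probe past 1.5-fold gave 137 and 180, the median of probes 153 and 205, subtraction of the median 148 and 204, and quantile normalization 150 and 196. The 278 genes past the limit with 1 probe meet the requirement on every probe by definition, and of the 75 with more, 39 met it. SOX2 ranged from -0.66 to -0.65 over its 5 alternatives. The 55 list medians moved by at most 0.126, with the smallest probe, where 13 changed sign, and 0 to 2 changed sign in each of the other 4 alternatives. The medians themselves run only from -0.20 to 0.16. Of 171 named genes besides SOX2, 14 moved by more than 0.179, the SD between 2 probes of a gene, with the smallest probe and 14 with the largest, and TSC22D1 went to 0.82 with the median. None of them changed sign past the limit. No paired analysis was possible because each group has 1 array, and for the same reason leaving out a replicate could not be run. Scanner values match no sample by name and were not used as signal levels, so the depth of measurement of each gene was not read.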

Other observations

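The 20705 probes without a single gene symbol were not used for any gene. In H520, 35 of them were at least 1.5-fold higher and 33 lower, together 0.328%, against 2.07% of the 28096 probes with a gene symbol. Between the 2 probes of a gene, differences correlated across 3934 genes with a Pearson r of 0.366. These points share the same 2 arrays, and genes are not independent replicates.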
